A study of Homo sapiens with 36 samples.

Results

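The 10 genes followed here, *CDKN1A*, *BTG2*, *PHLDA3*, *MDM2*, *BBC3*, *SESN1*, *FDXR*, *TP53I3*, *ZMAT3* and *GDF15*, are established transcriptional targets of p53. They were taken as the rows of the count table whose Ensembl identifiers map to these symbols, 10 of 61587 rows. All 10 passed the filter on low counts and were among the 22486 genes tested.

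p53 is a transcription factor that is kept scarce in unstressed cells by the ubiquitin ligase MDM2 and accumulates after DNA damage and other stress. It binds a pair of short repeats near its targets and induces genes that halt the cell cycle, trigger apoptosis, adjust redox metabolism and, through *MDM2* itself, restrain p53. HEK293T cells, a human embryonic kidney line, carry the SV40 large T antigen, a viral protein that binds p53. Large T has no row in a table of human genes and was not measured here.

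The study asked how TXNL1, a thioredoxin-like protein that binds the proteasome, is degraded under oxidative stress. All 36 libraries came from HEK293T cells with *TXNL1* knocked out (KO), and KO was therefore shared by every control. KO cells were made by CRISPR and grown from single sorted cells, with the number of clones used not stated, and were complemented stably by lentivirus from the CMV promoter with an empty vector, WT TXNL1, D162R R234D TXNL1, which does not bind the proteasome, or SxxS TXNL1, which lacks the thioredoxin active site. Each of these 4 lines was left untreated (labelled DMSO), exposed to H2O2 or exposed to arsenite, a thiol-reactive oxidant, with 3 replicates in each of the 12 groups. The study's methods give 600 µM hydrogen peroxide, 100 µM arsenite and 6 h of exposure. The methods describe cells treated in triplicate in multiwell plates and do not say whether the triplicates were grown apart, so p-values measure the spread between these libraries.

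Libraries held 42072410 to 174119002 counts (median 66016833). *TXNL1* stood at 28.6 to 31.7 CPM (counts scaled to library size and composition) in the 3 untreated vector libraries and at 51.7 to 66.2 CPM in the 9 untreated complemented libraries, so reads on the targeted gene remained in KO cells. The HEK293T markers *KRT8*, *KRT18*, *VIM* and *LIN28B* were present in every library, *NEFL* had a median of 1.91 CPM and *NEFM* of 0.129 CPM with 2 libraries at 0. *PTPRC*, *PECAM1*, *ALB*, *TYR* and *MYH6*, markers of other cell types, reached at most 0.299 CPM. 2 WT libraries stood apart from their replicates, H2O2 replicate 2 and arsenite replicate 1. The SD over genes of their log2 deviations from their group's median was 0.62 and 0.54, against 0.07 to 0.19 in the other 34 libraries. The main counts of called genes are therefore given with and without both.

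The genome around 9 of the 10 genes was searched for the p53 consensus repeat on both strands, since p53 binds such repeats near its targets. *PHLDA3* had no window in the promoter set used and was not searched. RefSeq promoter windows on GRCh38, from 250 bases before to 50 after a start, were found for 9 of the 10 genes and hold an exact repeat in *FDXR* and *SESN1*, against 6.63% of 35116 windows of all genes. A pair of exact repeats with up to 13 bases between them lay in 0 of the members' promoter windows and in 0.0285% of all windows. Within 2500 bases on either side of a start, an exact pair lay near *ZMAT3* and in 0.661% of all windows. Allowing 2 mismatches over 2 adjacent repeats, a definition chosen after the exact search had been seen, added *CDKN1A*, *BTG2*, *MDM2* and *GDF15* against 4.06% of all windows. With up to 13 bases between the repeats as well, *FDXR* and *SESN1* were added, giving 7 of 9 genes against 40.3% of all windows. In these searches no mismatch was allowed at the fixed C or the fixed G of a repeat. The 9 genes had 16 windows, so counts of genes and shares of windows are not on 1 scale. The 5 matches with adjacent repeats are shown 5′ to 3′ on the gene's own strand because they let the responses below be read beside the element. The 2 repeats are in capitals and 5 flanking bases on each side are in lower case.
CDKN1A: gtcagGAACATGTCCCAACATGTTGagctc
BTG2: gggtcACGCATGTTCAGGCATGCATggaat
MDM2: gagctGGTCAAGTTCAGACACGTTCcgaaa
ZMAT3: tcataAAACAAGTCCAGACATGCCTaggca
GDF15: attgcCATCTTGCCCAGACTTGTCTcgaac

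The *CDKN1A* match (GRCh38 chr6:36676449-36676468, plus strand) begins 2265 bases before the start at 36678714 and overlaps an exon of a longer transcript. The *MDM2* match (chr12:68808923-68808942, plus strand) lies in an intron, 746 bases after a start at 68808177 and 94 bases before the internal start at 68809017. The *ZMAT3* match (chr3:179070188-179070207, minus strand) is intronic, *BTG2*'s (chr1:203303642-203303661, plus strand) is upstream of every annotated transcript and *GDF15*'s (chr19:18385308-18385327, plus strand) is intronic. A match describes letters in the genome. Binding of p53 was not measured, and a gene with no match may carry one elsewhere or in another form.

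In untreated cells the 10 genes spanned a wide range of levels. Per kilobase of exon, *MDM2* stood highest with a median of 13.3 CPM per kb over 12 libraries (range 11.9 to 14.7). *TP53I3* (4.95), *BTG2* (4.90), *FDXR* (4.41) and *SESN1* (4.13) formed a middle tier in which each gene's range overlapped that of the next. *BBC3* (2.77), *PHLDA3* (2.48), *CDKN1A* (2.20) and *ZMAT3* (1.94 CPM per kb) followed, again with overlapping neighbours. *GDF15* was nearly silent at 0.133 CPM per kb, with 0 to 30 counts in an untreated library. The steps from *MDM2* to *TP53I3*, from *SESN1* to *BBC3* and from *ZMAT3* to *GDF15* were the 3 at which the ranges over libraries did not overlap.

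**Figure D1:**
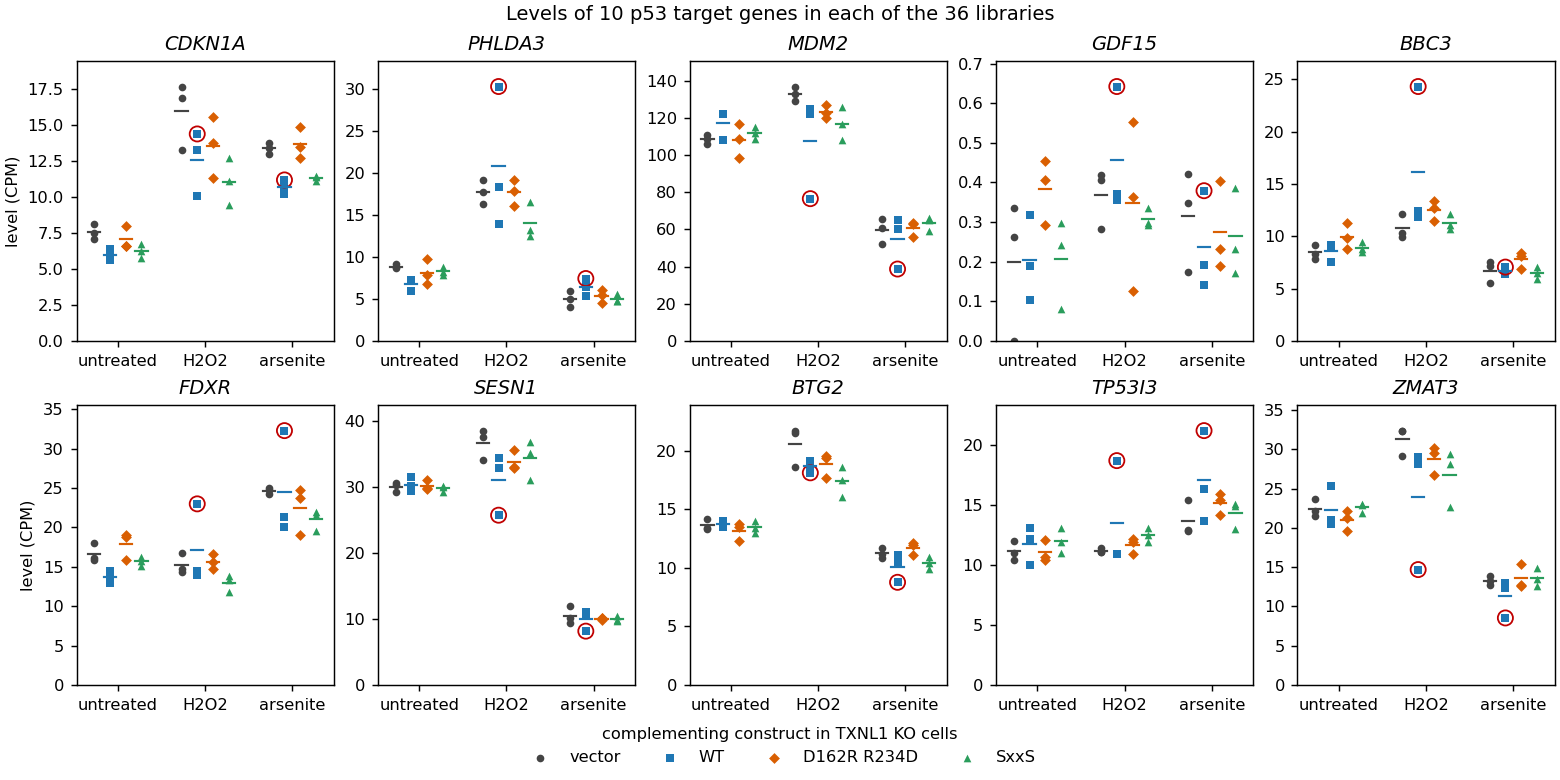
Level of each of the 10 genes (CPM, y axis from 0) in each of the 36 libraries by treatment (x axis), with colour and marker for the complementing construct, short bars for the mean of 3 replicates and red rings on the 2 outlying WT libraries. *CDKN1A* lies above its untreated libraries under both oxidants, and *SESN1* lies at 8.15 to 11.9 CPM with arsenite, below all its other libraries.

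H2O2 raised 6 of the 10 genes and lowered none, averaged over the 4 lines. *PHLDA3* rose 2.19-fold and *CDKN1A* 1.98-fold, followed by *BBC3* and *BTG2* at 1.40-fold each, *ZMAT3* at 1.25-fold and *SESN1* at 1.13-fold. *MDM2*, *TP53I3*, *FDXR* and *GDF15* did not pass the test. Over all genes, 12.1% were called at an adjusted p under 0.05 (edgeR's quasi-likelihood test), 6.78% higher and 5.30% lower, and the median log2 fold change was 0.40 over the members against 0.00 over all genes. Without the 2 outlying WT libraries, 8 members were called, 7 higher and 1 lower, against 28.6% of all genes. In bulk samples such as these, fewer cells of a kind and less RNA per cell cannot be told apart.

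Arsenite moved 9 of the 10 genes, 3 up and 6 down. *CDKN1A* rose 1.83-fold, *FDXR* 1.46-fold and *TP53I3* 1.31-fold. *SESN1* fell to 0.336 times its untreated level, *MDM2* to 0.534, *ZMAT3* to 0.584, *PHLDA3* to 0.682, *BBC3* to 0.772 and *BTG2* to 0.803 times. *GDF15* was not called. This stands against 68.8% of all genes called with arsenite, 37.4% higher and 31.5% lower, so 9 of 10 is a count in a treatment that moved most genes. The median log2 fold change was -0.35 over the members and 0.06 over all genes, and without the outlying libraries the count was again 9, with 3 higher and 6 lower, against 73.7%.

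**Figure D2:**
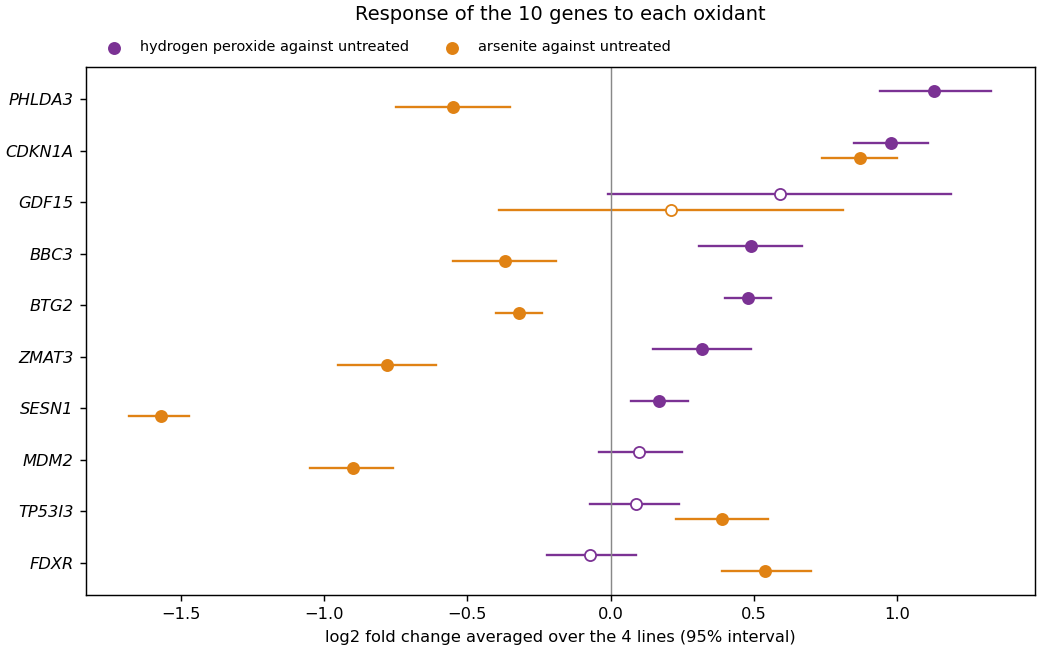
Log2 fold change against untreated cells averaged over the 4 lines (x axis) for each gene (y axis), with 95% intervals, filled where the adjusted p was under 0.05. The H2O2 estimates run from -0.07 (*FDXR*) to 1.13 (*PHLDA3*) and the arsenite estimates from -1.57 (*SESN1*) to 0.87 (*CDKN1A*).

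*CDKN1A* encodes p21, an inhibitor of cyclin-dependent kinases that arrests the cell cycle (Ensembl ENSG00000124762, GRCh38 chr6:36676460-36687337, plus strand). In vector cells it stood at 7.08, 7.48 and 8.13 CPM untreated, at 13.3, 16.9 and 17.7 CPM with H2O2 and at 13, 13.8 and 13.4 CPM with arsenite. In WT cells it stood at 6.39, 5.84 and 5.66 CPM untreated, at 10.1, 14.4 and 13.3 CPM with H2O2 and at 11.2, 10.2 and 10.7 CPM with arsenite. All treated libraries of both lines lay above all their untreated ones. In D162R R234D cells the 3 untreated libraries gave 6.57, 6.63 and 8.02 CPM, those with H2O2 11.3, 13.8 and 15.6 CPM and those with arsenite 12.7, 13.5 and 14.9 CPM. In SxxS cells the values were 6.74, 5.75 and 6.27 CPM untreated, 9.44, 11.1 and 12.7 CPM with H2O2 and 11.1, 11.5 and 11.4 CPM with arsenite. Over all lines the 12 untreated libraries (5.66 to 8.13 CPM) overlapped neither the 12 with H2O2 (9.44 to 17.7 CPM) nor the 12 with arsenite (10.2 to 14.9 CPM). The averaged log2 fold change was 0.98 ± 0.06 (SE) with H2O2 (edgeR adjusted p = 4.86e-12) and 0.87 ± 0.06 with arsenite (edgeR adjusted p = 4.51e-13). The lncRNA *DINOL* overlaps *CDKN1A* by 146 exon bases on the opposite strand.

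*CDKN1A* was also called higher in each line on its own, with log2 fold changes of 0.83 to 1.08 under H2O2 and 0.82 to 0.96 under arsenite. The difference between the oxidants was -0.11 on the log2 scale (95% interval -0.24 to 0.02, edgeR adjusted p = 0.112), which did not pass the test.

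*BTG2*, an antiproliferative protein that joins the mRNA deadenylase complex (ENSG00000159388, chr1:203305491-203309602, plus strand), was called under both oxidants. Untreated libraries ran from 12.3 to 14.2 CPM (median 13.5), those with H2O2 from 16.0 to 21.7 CPM (median 18.7) and those with arsenite from 8.76 to 12.1 CPM (median 11). All 12 H2O2 libraries lay above and all 12 arsenite libraries below the untreated ones. The log2 fold changes were 0.48 ± 0.04 with H2O2 (edgeR adjusted p = 4.08e-10) and -0.32 ± 0.04 with arsenite (edgeR adjusted p = 2.47e-08).

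*PHLDA3*, a pleckstrin homology domain protein that represses AKT signalling (ENSG00000174307, chr1:201464278-201469237, minus strand), rose with H2O2 and fell with arsenite. In vector cells it went from 8.66, 9.11 and 8.75 CPM untreated to 16.3, 17.7 and 19.2 CPM with H2O2 and to 4.06, 4.96 and 5.93 CPM with arsenite. In WT cells it went from 7.09, 5.91 and 7.27 CPM to 13.9, 30.3 and 18.3 CPM with H2O2, where 30.3 CPM belongs to the outlying replicate 2, and to 7.43, 6.4 and 5.35 CPM with arsenite. The arsenite libraries of WT cells thus overlapped their untreated libraries, unlike those of the vector cells. The 7.43 CPM belongs to the outlying arsenite replicate 1, and replicate 2 at 6.4 CPM also lay within the untreated range. D162R R234D cells gave 6.73, 7.85 and 9.79 CPM untreated, 16.1, 17.9 and 19.2 CPM with H2O2 and 4.57, 6.04 and 5.49 CPM with arsenite. SxxS cells gave 8.16, 7.90 and 8.79 CPM untreated, 12.5, 13.2 and 16.6 CPM with H2O2 and 4.81, 5.53 and 4.70 CPM with arsenite. Over all lines, the 12 H2O2 libraries lay above the 12 untreated libraries. The averaged log2 fold change was 1.13 ± 0.09 with H2O2 (edgeR adjusted p = 9.5e-10), or 1.04 without the outlying libraries, and -0.55 ± 0.10 with arsenite (edgeR adjusted p = 9.79e-06). *PHLDA3* shares 598 exon bases with ENSG00000224818 on its own strand, so reads there could be counted for either gene.

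With these 3 genes, *CDKN1A*, *PHLDA3* and *BTG2*, every H2O2 library lay above every untreated library. Over all genes, 0.551% separated in that way.

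*MDM2*, the ubiquitin ligase that targets p53 for degradation and closes the feedback loop (ENSG00000135679, chr12:68808177-68845544, plus strand), was the most abundant member and fell with arsenite. Vector cells gave 106 to 111 CPM untreated, 129 to 137 CPM with H2O2 and 52.4 to 65.9 CPM with arsenite. WT cells gave 108 to 122 CPM untreated, 122 and 125 CPM with H2O2 in replicates that resembled each other but 76.6 CPM in the outlying replicate 2, and 38.7 CPM (outlying replicate 1), 60.4 and 65.0 CPM with arsenite. D162R R234D cells stood at 98.7 to 117, 120 to 127 and 56.0 to 63.4 CPM, and SxxS cells at 109 to 115, 108 to 126 and 59.4 to 66.4 CPM, in the same order of treatments. All 12 arsenite libraries lay below all untreated ones, at a log2 fold change of -0.90 ± 0.07 (edgeR adjusted p = 2.05e-12). With H2O2 the log2 fold change was 0.10 (95% interval -0.04 to 0.25, edgeR adjusted p = 0.409). Without the 2 outlying libraries it was 0.15 and passed the test (edgeR adjusted p = 0.00177). *MDM2* overlaps the carboxypeptidase gene *CPM* and another gene by 918 exon bases on the opposite strand and one gene by 439 bases on its own strand.

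*BBC3* encodes PUMA, a BH3-only protein that triggers mitochondrial apoptosis (ENSG00000105327, chr19:47220822-47232766, minus strand). Untreated libraries ran from 7.56 to 11.3 CPM (median 8.82), H2O2 libraries from 9.97 to 24.3 CPM (median 11.9) and arsenite libraries from 5.49 to 8.44 CPM (median 6.98). The highest H2O2 value was WT replicate 2, and the other 11 reached 13.4 CPM at most. Pooled over lines the ranges overlapped, whereas within each of the 4 lines the H2O2 libraries lay above and the arsenite libraries below the untreated ones. The share of all genes that separated so within lines was not computed. In tests of single lines with all libraries, *BBC3* was called with H2O2 only in WT cells (edgeR adjusted p = 0.00131). With arsenite it was called only in SxxS cells (edgeR adjusted p = 0.036). The log2 fold changes were 0.49 ± 0.09 with H2O2 (edgeR adjusted p = 0.000208), or 0.38 without the outlying libraries, and -0.37 ± 0.09 with arsenite (edgeR adjusted p = 0.000439).

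*SESN1*, a sestrin that restrains mTORC1 (ENSG00000080546, chr6:108984309-109094846, minus strand), varied little between untreated libraries and had the lowest log2 fold change of the 10 genes with arsenite. Vector cells gave 30.6, 29.2 and 30.2 CPM untreated, 34.0, 38.5 and 37.6 CPM with H2O2 and 9.37, 11.9 and 10.2 CPM with arsenite. WT cells gave 29.3, 31.5 and 30.1 CPM untreated, 32.9, 25.7 and 34.3 CPM with H2O2 and 8.15, 10.7 and 11 CPM with arsenite. The WT H2O2 library at 25.7 CPM was the outlying one and the sole H2O2 library below the untreated range. D162R R234D cells gave 31.1, 29.6 and 29.8 CPM untreated, 33, 32.9 and 35.5 CPM with H2O2 and 9.78, 10.1 and 10.1 CPM with arsenite. SxxS cells gave 30.1, 30.0 and 29.2 CPM untreated, 31.0, 36.8 and 35.1 CPM with H2O2 and 9.61, 10.5 and 9.91 CPM with arsenite. The 12 arsenite libraries (8.15 to 11.9 CPM) and the 12 untreated ones (29.2 to 31.5 CPM) did not overlap. The log2 fold change with arsenite was -1.57 ± 0.05 (edgeR adjusted p = 1.16e-21), and with H2O2 it was 0.17 ± 0.05 (edgeR adjusted p = 0.0178). Scaling by total counts gave the same H2O2 change of 0.17 with an edgeR adjusted p of 0.0626, above the threshold.

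The mitochondrial electron donor enzyme *FDXR*, ferredoxin reductase (ENSG00000161513, chr17:74862497-74873031, minus strand), rose with arsenite. Its untreated libraries ran from 12.9 to 19.1 CPM (median 15.9), H2O2 libraries from 11.8 to 23.0 CPM (median 14.6) and arsenite libraries from 19.1 to 32.3 CPM (median 22.8). All 12 arsenite libraries lay above all untreated ones, though the nearest were within rounding of each other. The outlying WT libraries were the highest with either oxidant, at 23.0 and 32.3 CPM. The log2 fold change was 0.54 ± 0.07 with arsenite (edgeR adjusted p = 2.21e-07) and 0.46 without those libraries. With H2O2 it was -0.07 (95% interval -0.22 to 0.09, edgeR adjusted p = 0.663), and without them -0.14, which passed the test (edgeR adjusted p = 0.0107).

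*TP53I3*, also called PIG3, a quinone oxidoreductase-like enzyme (ENSG00000115129, chr2:24077433-24085861, minus strand), also rose with arsenite. Untreated libraries ran from 10.0 to 13.1 CPM (median 11.4), H2O2 libraries from 10.9 to 18.7 CPM (median 11.6) and arsenite libraries from 12.8 to 21.2 CPM (median 15). Untreated and arsenite libraries overlapped slightly, and the outlying libraries again held the highest values, 18.7 and 21.2 CPM. The log2 fold change was 0.39 ± 0.08 with arsenite (edgeR adjusted p = 4.4e-05) and 0.33 without them. With H2O2 it was 0.09 (95% interval -0.07 to 0.24, edgeR adjusted p = 0.559) and 0.00 without them.

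*ZMAT3*, a zinc finger RNA-binding protein that regulates splicing and mRNA stability (ENSG00000172667, chr3:178960121-179072215, minus strand), ran from 19.6 to 25.4 CPM untreated (median 22). H2O2 libraries ran from 14.7 to 32.4 CPM (median 29.1) and arsenite libraries from 8.54 to 15.4 CPM (median 12.8). The outlying WT libraries were the lowest with either oxidant, and the other 11 H2O2 libraries held 22.7 CPM or more. All arsenite libraries lay below all untreated ones. The log2 fold changes were 0.32 ± 0.08 with H2O2 (edgeR adjusted p = 0.00789) and -0.78 ± 0.08 with arsenite (edgeR adjusted p = 1.6e-09).

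*GDF15*, a secreted stress cytokine of the TGF-β family (ENSG00000130513, chr19:18374731-18389176, plus strand), held 0 to 63 counts in a library. The level was 0 to 0.454 CPM untreated, 0.126 to 0.642 CPM with H2O2 and 0.141 to 0.421 CPM with arsenite, and all ranges overlapped. The log2 fold changes were 0.59 with H2O2 (95% interval -0.01 to 1.19, edgeR adjusted p = 0.221) and 0.21 with arsenite (95% interval -0.39 to 0.81, edgeR adjusted p = 0.537). At this depth a change of the size seen for *CDKN1A* lies inside the H2O2 interval.

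Among members whose 12 arsenite libraries all lay on one side of the 12 untreated ones, *CDKN1A* and *FDXR* were above, against 13.4% of all genes, and *MDM2*, *SESN1*, *BTG2* and *ZMAT3* were below, against 16.6%.

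The comparisons of H2O2 and of arsenite with untreated cells share their 12 untreated libraries, so the oxidants were also compared directly. 8 members differed, against 68.7% of all genes. 2 were higher with arsenite, against 37.3% of all genes, and 6 were lower, against 31.3%. *SESN1* (log2 difference of arsenite minus H2O2 -1.74, 95% interval -1.85 to -1.64) and *PHLDA3* (-1.68, -1.88 to -1.49) differed most. *ZMAT3* (-1.10), *MDM2* (-1.01), *BBC3* (-0.86) and *BTG2* (-0.80) were also lower with arsenite, and *FDXR* (0.61) and *TP53I3* (0.30) were higher. *CDKN1A* and *GDF15* (-0.38, 95% interval -0.95 to 0.19) did not pass the test. The median difference was -0.83 over the members and 0.06 over all genes, and without the outlying libraries 8 members differed against 74.8% of all genes. Doses of the oxidants were not matched.

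Within single lines, H2O2 called *CDKN1A*, *PHLDA3* and *BTG2* higher in each of the 4. The counts were 3 in vector cells (1.35% of all genes called), 4 in WT cells (8.06%), 3 in D162R R234D cells (1.03%) and 3 in SxxS cells (1.02%), where *BBC3* was the additional call in WT cells. The share of all genes called higher in each of the 4 lines was not computed. In SxxS cells the count of members fell to 1, *CDKN1A*, when untreated replicate 1 or 2 or H2O2 replicate 2 or 3 was left out. Without the 2 outlying libraries the counts were 7 of 10 in vector cells (9.87% of all genes), 5 in WT cells (8.98%), 5 in D162R R234D cells (10.4%) and 6 in SxxS cells (6.56%). Those 2 libraries enter the spread estimated over all groups. When only the groups compared were fitted, 7 members were called in vector cells (12.5% of all genes) and 0 in WT cells (0.00445%). In WT cells 5 members then stood at an unadjusted edgeR p under 0.05. The share of all genes at that unadjusted threshold was not computed.

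With all libraries, arsenite called 7 members in vector cells (43.4% of all genes called), 7 in WT cells (53.6%), 6 in D162R R234D cells (44.0%) and 8 in SxxS cells (43.6%), and without the outlying libraries 9, 8, 9 and 9 of the 10 (56.4%, 52.9%, 56.9% and 57.0% of all genes). With all libraries, *CDKN1A* was higher and *SESN1*, *MDM2* and *ZMAT3* were lower in each line. The share of all genes called the same way in each of the 4 lines was not computed. The log2 fold changes of *SESN1* lay between -1.61 and -1.51 in the 4 lines. *PHLDA3* fell in vector (-0.81), D162R R234D (-0.59) and SxxS cells (-0.72). The estimate in WT cells, with the outlying library included, was -0.08 ± 0.19 (edgeR adjusted p = 0.747). That difference between lines did not pass the test of the interaction of line and arsenite (edgeR adjusted p = 0.786).

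**Figure D3:**
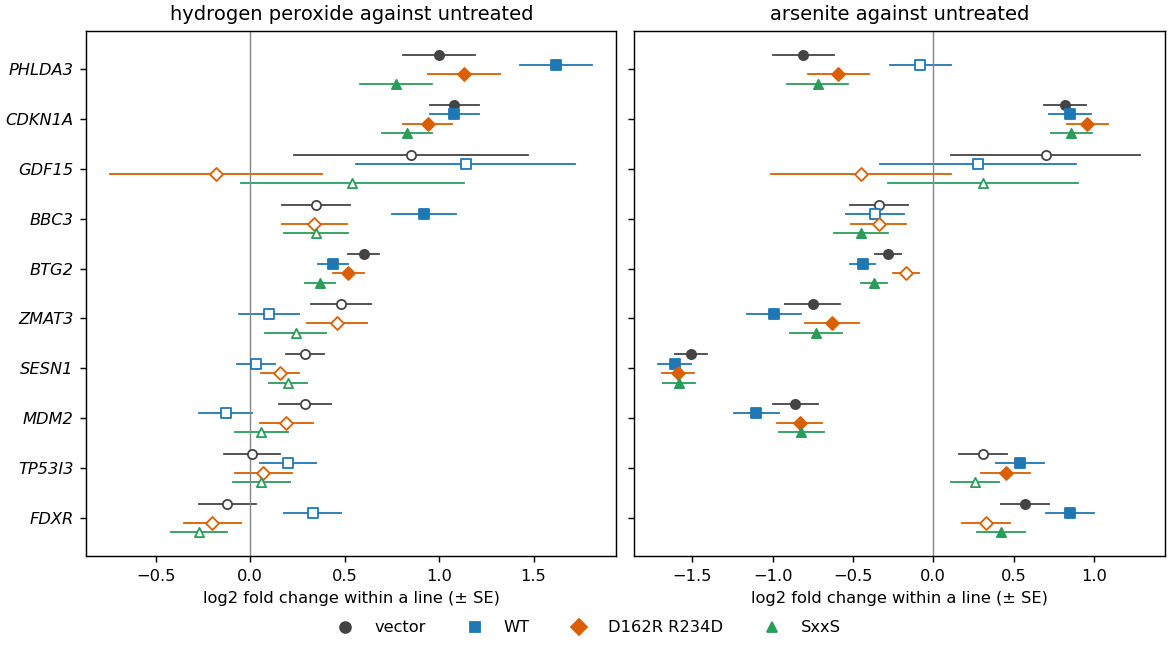
Log2 fold change of each gene (y axis) within each line against that line's untreated cells, with H2O2 on the left and arsenite on the right, bars for 1 SE and filled markers where the adjusted p was under 0.05. The 4 lines lie close together for *CDKN1A* and *SESN1*, and WT cells, which hold both outlying libraries, stand off from the others for *PHLDA3* and *FDXR*.

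With all libraries fitted, no member was called between the lines. In untreated cells, 0 members were called in WT against vector cells (0.196% of all genes called), in D162R R234D (0.0267%) or in SxxS cells (0.0178%) by edgeR's quasi-likelihood test, and DESeq2 also called 0 in each. At an unadjusted edgeR p under 0.05 there were 1, 0 and 1 members, in both cases *CDKN1A*, with log2 differences from vector cells of -0.34 ± 0.13 in WT cells and -0.27 ± 0.13 in SxxS cells. When only the 6 libraries compared were fitted, *PHLDA3* was called lower in WT than in vector cells. The share of all genes called in that fit is not given here. The interaction of line and oxidant called 0 members for H2O2 (0.685% of all genes) and 0 for arsenite (0% of all genes), and DESeq2 called 0 for both. At an unadjusted edgeR p under 0.05 there were 2 members for H2O2, *PHLDA3* and *FDXR*, and 0 for arsenite. Shares of all genes at that unadjusted threshold were not computed, here or for the untreated cells. Without the outlying libraries no member was at an unadjusted edgeR p under 0.05 in either interaction, and 0 were called, against 1.51% and 0.205% of all genes.

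Among 18 regulators of p53, H2O2 raised 3 and lowered 1 (median log2 fold change 0.00), where 12.1% of all genes were called. The called regulators were *TP73*, a p53 relative (0.29), the chaperone *DAXX* (0.14) and the checkpoint kinase *CHEK1* (0.09), all higher, and the checkpoint kinase *CHEK2* (-0.11), lower. Arsenite raised 8 and lowered 6 (median 0.07), where 68.8% of all genes were called. *PPM1D*, a phosphatase that switches off p53 signalling and is itself known as a p53 target, went from 39.0 ± 1.07 CPM (SD, n = 12) to 116 ± 11.4 CPM, a 2.96-fold rise (edgeR adjusted p = 2.16e-22), but stood at 42.1 ± 3.82 CPM with H2O2 (edgeR adjusted p = 0.126). The acetyltransferase *KAT5* (0.57) and *CHEK2* (0.56) rose with arsenite, and the kinase *HIPK2* (-0.53), the acetyltransferase *EP300* (-0.39) and the deubiquitinase *USP7* (-0.28) fell. *MDM4*, the MDM2 relative that masks p53's activation domain, was not called with either oxidant. Without the outlying libraries the calls in this list were 5 higher and 5 lower with H2O2, against 28.6% of all genes, and 9 higher and 8 lower with arsenite, against 73.7%.

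Of 52 other genes known as p53 targets, 48 were tested. H2O2 raised 18, against 6.78% of all genes, and lowered 1, against 5.30%, with a median log2 fold change of 0.12 against 0.00 over all genes. Without the outlying libraries 28 rose and 3 fell, where 28.6% of all genes were called. *GADD45A*, which halts the cell cycle after DNA damage (0.66), *TP53INP1*, a cofactor of p53 (0.48), and the kinase *PLK3* (0.47) rose most among genes with at least 100 counts on average, and *CCNG1*, cyclin G1, fell (-0.10). Arsenite raised 25, against 37.4% of all genes, and lowered 17, against 31.5% (median 0.14 against 0.06). Without the outlying libraries 25 rose and 18 fell with arsenite, where 73.7% of all genes were called. The sestrin *SESN2* rose from 53.3 ± 2.34 to 567 ± 32.8 CPM (SD, n = 12), a log2 fold change of 3.41, whereas its relative *SESN1* fell. *PLK3* (1.87) and the DNA damage recognition gene *DDB2* (1.37) rose, and *IER5* (-2.09), *RAP2B* (-1.53) and the ribonucleotide reductase subunit *RRM2B* (-0.83) fell. Both directions appeared with arsenite in this wider list, as among the 10 genes.

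2 further lists were read beside these. p21 is known to act on transcription through the DREAM complex, which represses genes of the G2 and M phases. Whether it did so in these cells was not tested. Of 14 DREAM targets, 13 fell with H2O2, against 5.30% of all genes, and 0 rose (median -0.30), led by the mitotic kinase *PLK1* (-0.71), the cyclin *CCNB1* (-0.60) and the anaphase activator *CDC20* (-0.58). With arsenite 6 fell and 3 rose (median -0.02), where 68.8% of all genes were called. Without the outlying libraries 13 fell and 0 rose with H2O2, where 28.6% of all genes were called. With arsenite 8 then fell and 3 rose, where 73.7% were called. With all libraries and arsenite, *CENPA* (-1.10), *KIF23* (-0.98) and *CCNB1* (-0.90) fell, and *CDC25C* (1.06), *AURKB* (0.38) and *CCNB2* (0.11) rose. ATF4, the effector of the integrated stress response, is known to induce *SESN2* as well. Of 12 ATF4 targets, 11 rose with H2O2 (median 0.32), against 6.78% of all genes, and 10 rose and 2 fell with arsenite (median 1.76), against 37.4% and 31.5%. The ATF4 counts were the same in number without the outlying libraries, where those larger shares of all genes, 28.6% and 73.7%, were called. With H2O2 *CHAC1* (0.92), *SLC7A11* (0.91) and *SESN2* (0.46) rose most, and with arsenite *ATF3* (4.42), *SESN2* and *PPP1R15A* (2.94), while *CEBPB* (-0.72) and *VLDLR* (-0.60) fell. *SESN2* is counted in 2 of these lists.

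**Figure D4:**
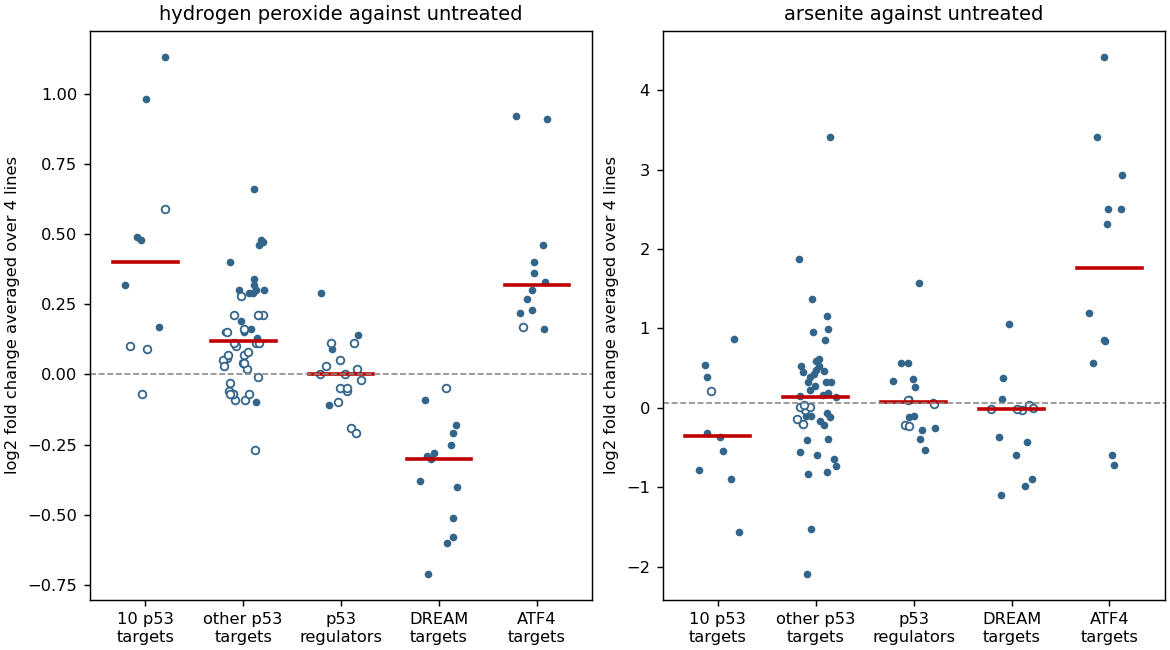
Log2 fold change averaged over the 4 lines (y axis, a different scale in each panel) of every tested gene in 5 lists (x axis), with H2O2 on the left and arsenite on the right, filled where the adjusted p was under 0.05, red bars at list medians and a dashed line at the median of all genes. With H2O2 the medians run from -0.30 (DREAM targets) to 0.40 (the 10 genes), and with arsenite from -0.35 (the 10 genes) to 1.76 (ATF4 targets).

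The pattern of *CDKN1A* over both oxidants and the 4 lines was compared with that of other genes. By the root mean square difference of the 8 within-line log2 fold changes, among 14979 other genes with a mean of at least 100 counts, the nearest were *SLC7A11* (0.261), *GADD45A* (0.273), *SLC6A9* (0.287), *TEX19* (0.293) and *NR4A1AS* (0.294). The other members ran from 0.728 (*TP53I3*) to 1.82 (*SESN1*), without *GDF15*, which had too few counts.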

How the data were processed

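Per the labels, strand-specific mRNA libraries were sequenced on a DNBseq platform. The authors aligned paired-end reads to GRCh38 with qAlign (QuasR) and deposited raw counts per gene, without normalization. The annotation release, use of strand and treatment of mates are not given in the sources used here. Identifiers were matched to GENCODE release 44 (61369 of 61587 rows), whose exon lengths for the 10 genes equalled those in the table.

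The study's filter (a sum of at least 10 counts in the 3 vector libraries without oxidant) left 22486 genes. These were tested with edgeR 4.0.16 in R 4.3.3, with TMM scaling, all 36 libraries in 1 robust quasi-likelihood fit with a mean for each group, and Benjamini-Hochberg adjustment over every tested gene at a threshold of 0.05. CPM used TMM-scaled totals. Averaged comparisons weighted the 4 lines equally. Alternatives were DESeq2 1.42.0 or its size factors, total counts, edgeR's own filter, no filter, only the groups compared, a replicate block, both outlying libraries or each library left out, and halved counts, chosen after even counts were seen to exceed odd ones. Code was tested on simulated data.

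The 10 genes and all lists were chosen with earlier results of these data known. From each other list, the 3 largest called rises and falls per oxidant with a mean of at least 100 counts are named. Single regulators were to be named as well, 1 of which is not reported here. p53 repeats were searched in RefSeq promoter windows and in the genome.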

Additional observations from a re-analysis of the deposited data

How the results depend on the processing

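No averaged change of a member reversed in any alternative run. Between 5 and 8 members were called with H2O2 and 9 with arsenite in each. Leaving out both outlying WT libraries raised the counts under H2O2 to 7 (vector, 9.87% of all genes), 5 (D162R R234D, 10.4%) and 6 (SxxS, 6.56%). It also made the averaged changes of *MDM2* and *FDXR* pass the test. Fitting only the groups compared gave 7 in vector cells (12.5% of all genes), 0 in WT cells (0.00445%) and 6 in SxxS cells under H2O2. The same setting called 1 member (*PHLDA3*, lower) in untreated WT against vector cells. Without the filter on low counts, 1 member (*CDKN1A*) was called in SxxS cells under H2O2. The cause was not tested. With 1 library left out at a time, the H2O2 count in SxxS cells ran from 1 to 3, and fell to 1 without untreated replicate 1 or 2 or H2O2 replicate 2 or 3. Arsenite counts in single lines ran from 5 to 7. In SxxS cells the arsenite count of 8 fell to 6 or 7 whichever compared library was left out. Averaged counts stayed at 6 and 9, and the count of members that differed between the oxidants at 8 to 9. Replicate numbers were not taken to pair the samples, since of 198 same-number pairs 49 had deviations correlated above 0.1 (median 0.02, range -0.87 to 0.81). Pairs with different numbers had a median correlation of -0.01. As a hint in the data, 18 of 36 libraries correlated best with their own number, where each had 3 numbers to match. H2O2 replicate 1 was also the lowest of its group for *CDKN1A* and *PHLDA3* in all 4 lines. With the replicate block, 6 members were called with H2O2, 9 with arsenite and 7 in D162R R234D cells with arsenite. The share of all genes called also moved between runs. For H2O2 in vector cells it went from 1.35% to 12.5% when only the groups compared were fitted. Counts given here without that share therefore cannot be compared between runs. Low counts limit *GDF15*.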
